A study of Mus musculus with 4 samples.

Results

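The lysosomal cathepsins described here are 9 genes, Ctsa, Ctsb, Ctsc, Ctsd, Ctse, Ctsh, Ctsl, Ctss and Ctsz, taken as the rows that the deposited gene table names CTSA, CTSB, CTSC, CTSD, CTSE, CTSH, CTSL, CTSS and CTSZ. All 9 had a row among 30854 gene rows. Of them, 7 had a detection p under 0.05 on at least 2 arrays and so entered the test over 11538 genes. Ctsb and Ctsl did not enter it and are given as values. The samples were LSK cells of mouse bone marrow, a fraction without lineage markers and with Sca-1 and Kit on its surface, which holds hematopoietic stem cells and early progenitors. Controls (2 arrays, replicates 1 and 2) were compared with B-myb floxed-MxCre mice, called knockouts here (2 arrays, replicates 1 and 3). Each array carried RNA from its own pool of 3 to 5 C57BL6/J mice, 12 to 16 weeks old. Mice of both genotypes received pIpC, a double-stranded RNA that induces interferon, 1 week before harvest, so both groups had been exposed to it. In the knockouts pIpC switches on the Mx-Cre recombinase, which acts in interferon-responsive cells of many tissues and deletes the floxed B-myb gene, now named Mybl2. The labels give the controls no further genotype, and the share of cells that lost the gene was not given.

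Cathepsins are proteases of the lysosome, the acidic compartment in which cells degrade proteins. They are made as inactive proenzymes, are mostly delivered through mannose 6-phosphate receptors and become active at low pH. They fall into enzyme classes by the residue in the active site. Ctsb, Ctsc, Ctsh, Ctsl, Ctss and Ctsz encode cysteine proteases of the papain family, Ctsd and Ctse encode aspartic proteases, and Ctsa encodes a serine carboxypeptidase that also protects other lysosomal enzymes. In blood cells they are best known for protein turnover in macrophages, for antigen processing and, for cathepsin C, for activating the serine proteases of granulocyte and mast cell granules.

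No cathepsin passed the test for a difference between the genotypes. After background correction and normalization, none of the 7 tested members had an adjusted p under 0.05 (limma, Benjamini-Hochberg over all genes; lowest adjusted p = 0.325), and none of the 11538 genes did (0%). At an unadjusted p under 0.05, 1769 genes stood out, 757 higher and 1012 lower in the knockout. Scaling the arrays to a common median instead gave 20 higher and 4368 lower, and 942 genes, Ctse among them, then passed the adjusted threshold. Among the members, 1 was in the higher group, where 6.56% of all genes were, and 0 were in the lower group, where 8.77% were. Ctsz had the largest difference upward and Ctse the largest downward, and the 95% confidence interval of each included 0. All values below are log2 intensities after that normalization unless a raw signal is named. A difference is knockout minus control over 2 arrays per genotype. Its standard error is that of limma and also draws on a variance shared over genes.

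The arrays themselves were not alike, which bears on dim members. Median raw signal was 84.2 to 91.2 for controls and 97.4 to 103.8 for knockouts, close to the 80.7 to 86.7 and 94.4 to 99.9 of the negative control probes. Genes with a detection p under 0.05, the limit for calling a gene above background on an array, numbered 12297 and 13439 for controls but 10761 and 8797 for knockouts. Mybl2 differed by −0.18 ± 0.28 (limma, adjusted p = 0.776; 0.15 without control replicate 1), but the place of its probes in the gene is not known, so this does not check the deletion. Kit, a gene of the sorting gate, was at 9.73 and 10.03 in controls versus 9.04 and 9.0 in knockouts. In a sorted population, a smaller share of cells that express a gene and less RNA per cell cannot be told apart.

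Of the members, 4 (Ctsc, Ctse, Ctsh and Ctsz) were above background on every array. Ctsa and Ctss were above it on 3 arrays and Ctsd on 2. Ctsb had a detection p under 0.05 on 1 array, although its raw signal was above every negative control probe on all 4 arrays. Ctsl had none. Because each gene has its own probes, levels of different members are not set against each other.

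Promoter stretches of 5 members are shown for the short sequence motifs they hold. The stretches below come from RefSeq promoters of the build GRCm38.p6, which run from 250 bases before to 50 bases after a gene's start. They held 6 of the 9 members, and Ctsb, Ctse and Ctsh had no entry. Capitals mark CACGTG, the core read by TFEB family factors that control lysosomal genes, with its flanks where the full TCACGTGA is present, or GAGGAAGT, a motif of the myeloid factor PU.1, which reads ACTTCCTC where it lies on the opposite strand. The Ctsa stretch is chr2:164833733-164833794 on the plus strand, that of Ctsd is chr7:142387892-142387953 on the minus strand and that of Ctsl is chr13:64370724-64370770 on the minus strand. The Ctsc stretch is chr7:88277907-88277968 and that of Ctss is chr3:95526757-95526818, both on the plus strand.
Ctsa: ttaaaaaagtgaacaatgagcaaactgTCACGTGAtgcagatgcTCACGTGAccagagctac
Ctsd: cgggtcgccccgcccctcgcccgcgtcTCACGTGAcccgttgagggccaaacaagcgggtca
Ctsl: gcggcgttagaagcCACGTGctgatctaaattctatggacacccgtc
Ctsc: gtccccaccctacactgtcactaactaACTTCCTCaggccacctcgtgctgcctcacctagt
Ctss: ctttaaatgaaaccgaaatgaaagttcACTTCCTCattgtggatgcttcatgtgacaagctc
Both strands were searched. CACGTG, which lies inside TCACGTGA, was present in 3 of the 7 member promoters (Ctsa, Ctsd and Ctsl) and in 7.15% of all 32851 promoters. TCACGTGA was present in 2 of the 7 (Ctsa and Ctsd) and in 0.974% of all, and GAGGAAGT in 2 of the 7 (Ctsc and Ctss) and in 3.20% of all. The Ctsz promoter and the other Ctsa promoter held none of these letters. A match is a description of the sequence. The members with TCACGTGA, Ctsa and Ctsd, were close to background on several arrays, and neither had genotypes that separated.

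Among the tested cysteine cathepsins, Ctsc, Ctss and Ctsz were higher on both knockout arrays than on both control arrays. Their differences turned to −0.30, −0.28 and −0.02 when arrays were scaled to a common median, where the median of all genes was −0.70. Ctsc encodes cathepsin C, or dipeptidyl peptidase I, which trims the granule serine proteases into their active form. Its raw signal was 445.1 and 385.7 in controls versus 468.5 and 313.7 in knockouts, and its normalized level was 7.92 and 8.28 against 8.84 and 8.54. The genotypes did not overlap after normalization but did overlap in raw signal. The difference was 0.59 ± 0.24, a 1.5-fold level, with a 95% confidence interval from 0.00 to 1.17 (limma, unadjusted p = 0.0497, adjusted p = 0.325). It was the single member with an unadjusted p under 0.05. No member was higher at that level under cyclic loess, with median scaling, with a filter on the negative control probes or without control replicate 1.

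Ctsz encodes cathepsin Z, also called cathepsin X, a carboxypeptidase of monocytes and macrophages. Its raw signal was 301.2 and 364.7 in controls versus 334.7 and 379.1 in knockouts. Its level was 7.25 and 8.17 in controls versus 8.27 and 8.87 in knockouts. The lower knockout array stood just above the higher control array, and the control arrays differed by 0.92, more than the difference between the genotypes. That difference was 0.86 ± 0.38, a 1.82-fold level (95% confidence interval −0.07 to 1.8; limma, adjusted p = 0.350). Leaving out control replicate 1 gave 0.40, and leaving out control replicate 2 gave 1.32. The bead standard error of Ctsz was 5.56% to 7.26% of its raw signal.

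Ctsh and Ctss showed smaller differences. Ctsh encodes an aminopeptidase of the same family. It was at 6.90 and 7.21 in the controls, at 7.81 on knockout replicate 1 and at 6.90 on knockout replicate 3, so a single knockout array was high. The difference of 0.30 ± 0.34 (limma, adjusted p = 0.695) was 0.75 without knockout replicate 3 and −0.15 without knockout replicate 1. Ctss encodes cathepsin S, which removes the invariant chain from MHC class II molecules in antigen-presenting cells. It was at 4.97 and 4.8 in controls versus 5.10 and 5.09 in knockouts, a difference of 0.21 ± 0.20 (limma, adjusted p = 0.626; 0.13 without control replicate 2). Its raw signals of 94.2 to 112.6 were near background, and on knockout replicate 3 its detection p was 0.0513.

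Ctsb and Ctsl were not tested. Ctsb encodes cathepsin B, an abundant endopeptidase and carboxypeptidase of most cells. Its raw signal was 667.3 and 494.6 in controls versus 446.1 and 275.7 in knockouts, lower in both knockouts, while normalized levels were 8.61 and 8.72 against 8.76 and 8.27 and overlapped. The difference was −0.15, and with the detection filter replaced by a limit at the 95th percentile of the negative control probes it was tested with an adjusted p = 0.788 in limma. It was −0.40 without knockout replicate 1 and 0.09 without knockout replicate 3. The detection p of Ctsb was 0.00264 on control replicate 1, 0.175 on control replicate 2, 0.0510 on knockout replicate 1 and 0.220 on knockout replicate 3. Ctsl encodes cathepsin L, an endopeptidase. Its raw signals were 87.1 and 80.1 in controls versus 94.9 and 111.1 in knockouts, not above background on any array, so no fold is given.

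**Figure D1:**
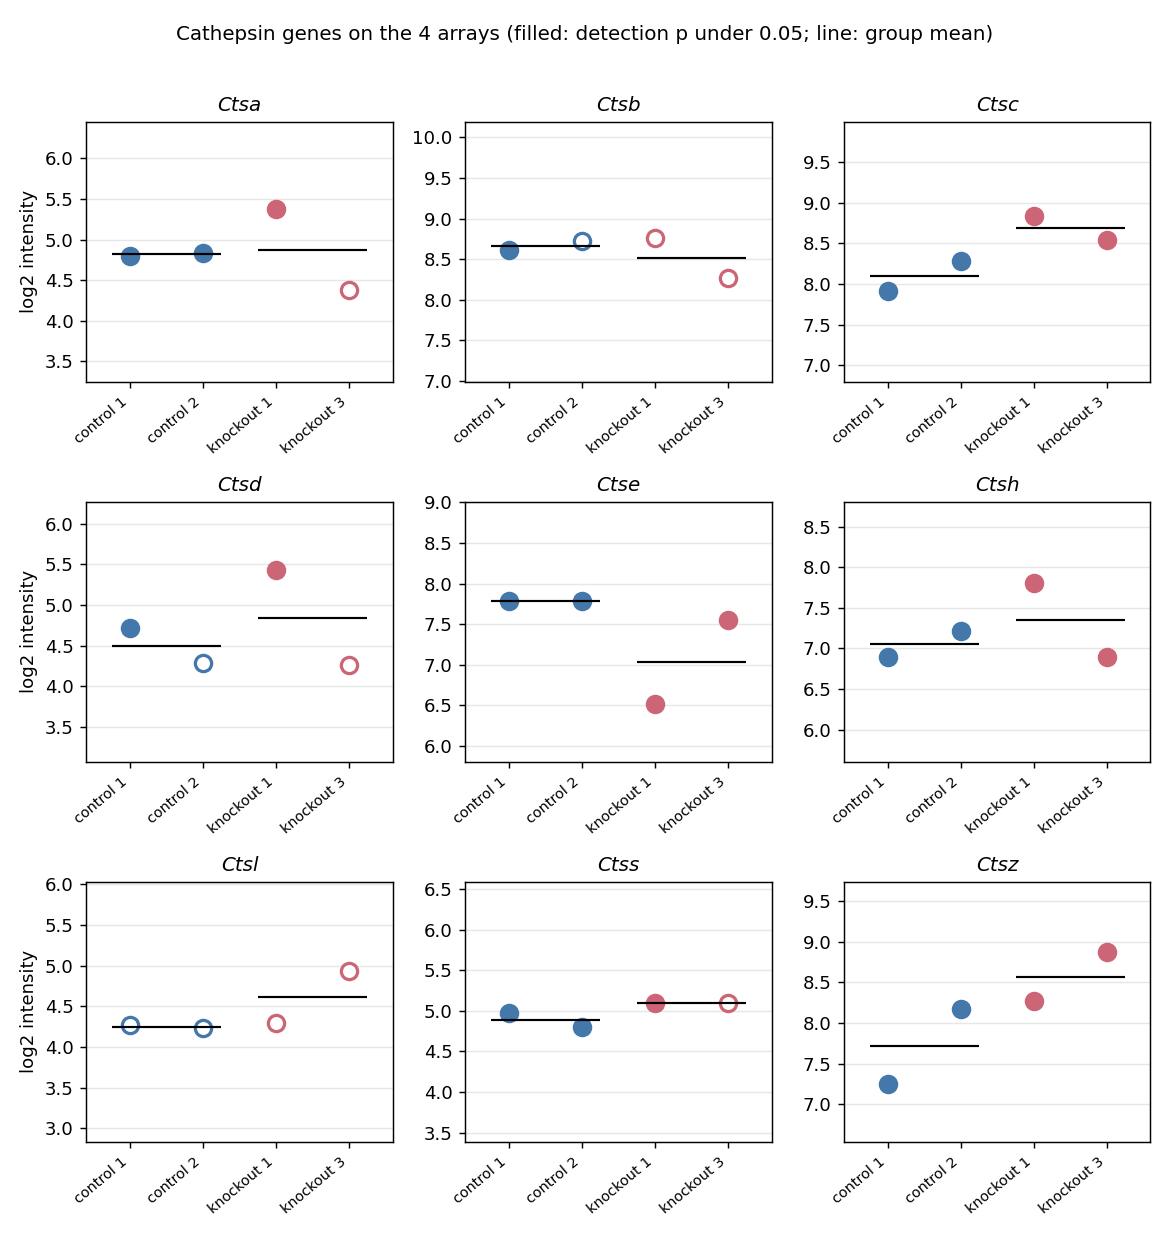
Normalized log2 intensity of the 9 cathepsin genes on each array, 1 panel per gene with an axis of the same height, controls in blue and knockouts in red. Filled points have a detection p under 0.05 and lines are group means. Before any median scaling, Ctsc, Ctsl, Ctss and Ctsz were higher on both knockout arrays than on both control arrays. Of these, Ctsl was not above background on any array. Ctse was lower on both knockout arrays, and Ctsa, Ctsb, Ctsc, Ctsd, Ctsh and Ctss were highest on knockout replicate 1.

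Neither aspartic cathepsin passed the test. Ctse encodes cathepsin E, an endosomal aspartic protease known from red cell precursors, lymphoid cells and the stomach. Its raw signal was 407.3 and 296.9 in controls versus 151.5 and 198.8 in knockouts. Normalized levels were 7.78 on both control arrays, 6.52 on knockout replicate 1 and 7.55 on knockout replicate 3. The genotypes did not overlap, yet the knockout arrays lay 1.03 apart and the difference was −0.74 ± 0.36, a 0.599-fold level (95% confidence interval −1.63 to 0.15; limma, adjusted p = 0.384). Leaving out knockout replicate 1 gave −0.23, and leaving out knockout replicate 3 gave −1.25. With median scaling it was −1.70 and passed the threshold (limma, adjusted p = 0.037), with the median of all genes at −0.70.

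A separate row of the table, named C920004C08RIK, is listed by RefSeq as an older name of Ctse. It was brighter, with raw signals of 2179.3 and 1446.1 in controls versus 1097.4 and 936.3 in knockouts. Its level was 10.50 and 10.46 in controls versus 10.16 and 10.32 in knockouts, also without overlap. The difference in that row was −0.25 ± 0.20 (limma, adjusted p = 0.573), smaller than in the row named Ctse, and again knockout replicate 1 was the lowest array. Whether both rows read the same transcript was not tested.

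Ctsd encodes cathepsin D, the main aspartic protease of lysosomes. Its raw signals of 100 and 81.5 in controls versus 113.6 and 98.7 in knockouts were near background. Its level was 4.71 and 4.28 against 5.43 and 4.26, so 1 array of each genotype was high. The difference was 0.35 ± 0.41 (limma, adjusted p = 0.709), and −0.24 without knockout replicate 1. Ctsa, the serine carboxypeptidase, was also highest on knockout replicate 1, with 4.8 and 4.84 in the controls, 5.37 on knockout replicate 1 and 4.38 on knockout replicate 3. Its difference was 0.05 ± 0.35 (limma, adjusted p = 0.951), and −0.44 without knockout replicate 1.

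**Figure D2:**
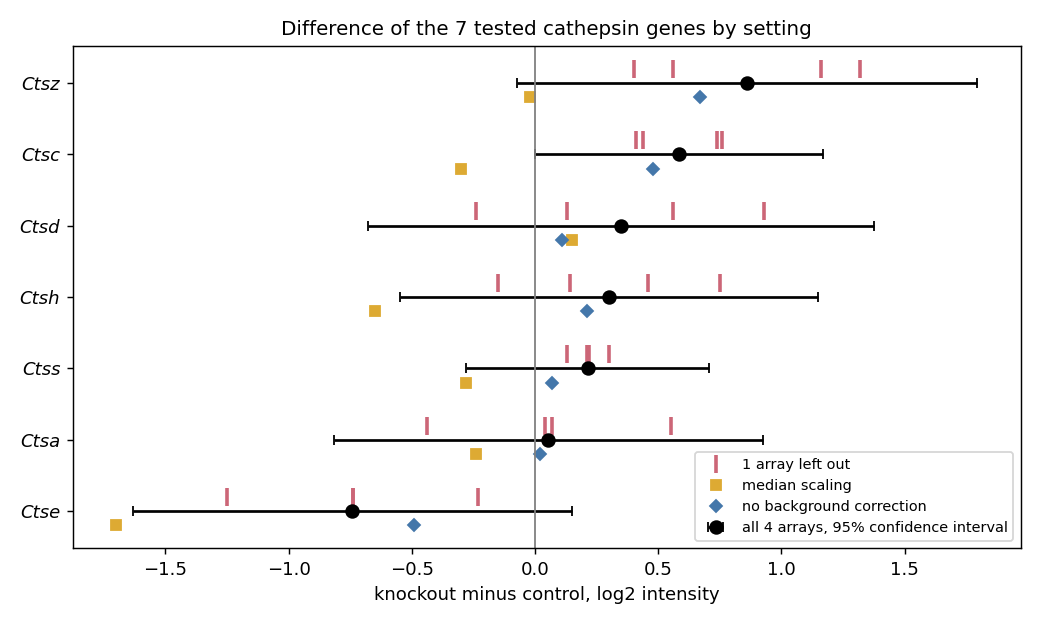
Knockout minus control on the log2 scale for the 7 tested cathepsin genes. Black points and bars are the value over all 4 arrays with its 95% confidence interval, red ticks leave out 1 array each, blue diamonds omit background correction and yellow squares scale the arrays by their median. Of the 7 intervals, that of Ctsc alone lies above 0 and its lower end touches 0.00. Median scaling placed every gene shown lower and those other than Ctsd below 0, with the median of all genes at −0.70.

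As a group the tested cathepsins had a median difference of 0.30, against −0.04 over all genes, with 6 of 7 above 0 where 46.4% of all genes were. The genotypes did not overlap for 4 of the 7, 3 higher and 1 lower, a share near the 50.1% of all genes without overlap. Of all genes, 22% lay without overlap above the controls and 28.1% below them. The median of the members was −0.15 without knockout replicate 1. It turned to −0.28 when arrays were scaled to a common median, where the median of all genes was −0.70. Relative to that shift Ctsd was at 0.86, Ctsz at 0.68, Ctsa at 0.46, Ctss at 0.42 and Ctsc at 0.41. Ctsh was at 0.05 and Ctse at −1.0, and the untested Ctsl and Ctsb were at 0.94 and −0.31. Ctsa, Ctsd, Ctsl and Ctss lay near background on some or all arrays. Median scaling moved the dimmest members little, Ctsl from 0.37 to 0.23 and Ctsd from 0.35 to 0.15, against 0.59 to −0.30 for Ctsc. Their values relative to all genes are therefore raised by the subtraction and are not read as rises. Of the 9 members, 6 differed more between the knockout arrays than between the control arrays. Ctsa, Ctsb, Ctsd and Ctsh were highest on knockout replicate 1 and at or below a control on knockout replicate 3.

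Among the 10 tested genes of other cathepsins and related proteases, out of 22 listed, none passed the adjusted threshold, 5 were above and 5 below 0, and the median was 0.04. Ctsg encodes cathepsin G, a serine protease of primary granules that cathepsin C activates. It was at 11.48 and 10.77 in controls versus 12.30 and 12.74 in knockouts, a difference of 1.39 ± 0.31 (limma, adjusted p = 0.237; 0.83 under median scaling). Both knockout arrays were above both controls for Ctsg as they were for Ctsc. Lgmn encodes legumain, an asparaginyl endopeptidase that processes cathepsin proenzymes. It was at 5.41 and 5.33 in controls versus 6.74 and 6.11 in knockouts, a difference of 1.05 ± 0.27 (limma, adjusted p = 0.245; 0.20 under median scaling). Ctsf, another cysteine cathepsin, was at 5.64 and 5.72 in the controls and not above background in the knockouts, where it read 4.30 and 4.17. The difference was −1.44 (limma, adjusted p = 0.157). Ctsf was 2.44-fold lower when each knockout array counted at its own value or, if higher, at the dimmest gene detected there. That size holds for this processing only. The difference was −0.69 with an offset of 50, −0.52 without background correction and −1.81 under median scaling. Ctsf entered the test through its control arrays alone, which favoured this direction.

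Of 17 cystatins and other cathepsin inhibitors, 8 were tested, 0 passed the adjusted threshold, 6 were above and 2 below 0, and the median was 0.21. Cst7 encodes cystatin F, an inhibitor in immune cells whose targets include cathepsin C. It was at 7.11 and 6.62 in controls versus 8.27 and 8.94 in knockouts, so every knockout array was above every control. The difference was 1.75 ± 0.31, a 3.36-fold level (limma, adjusted p = 0.190). It was between 1.41 and 2.08 with any 1 array left out, and 0.82 with median scaling. Ctla2b, which resembles the propeptide of a cysteine cathepsin, was at 6.0 and 6.43 in controls versus 5.56 and 4.81 in knockouts (−1.03 ± 0.32; limma, adjusted p = 0.267; −0.65 without knockout replicate 3 and −1.66 under median scaling).

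**Figure D3:**
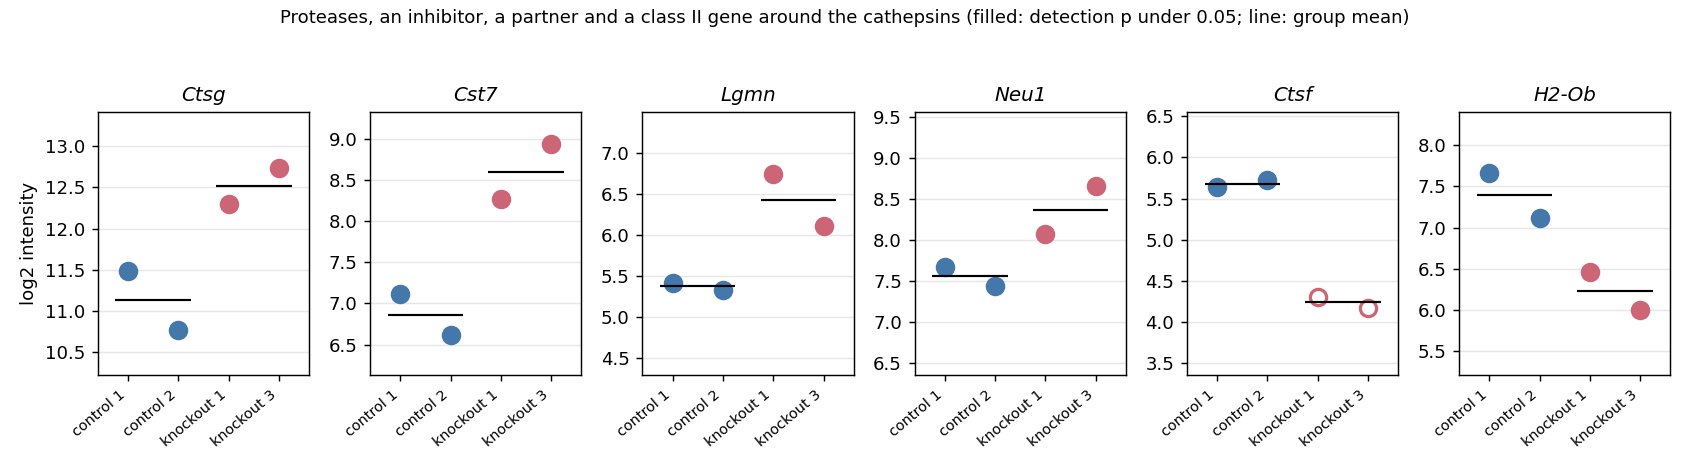
Normalized log2 intensity on each array for the proteases Ctsg, Lgmn and Ctsf, the inhibitor Cst7, the Ctsa partner Neu1 and the MHC class II gene H2-Ob, controls in blue and knockouts in red. Axes have the same height, filled points have a detection p under 0.05 and lines are group means. Ctsg, Cst7, Lgmn and Neu1 were higher on both knockout arrays, while Ctsf and H2-Ob were lower on both. Under median scaling Neu1 was at −0.13, with the median of all genes at −0.70.

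Lysosomal hydrolases and membrane proteins lay on both sides of 0. Of 38 lysosomal hydrolases and activators, 26 were tested, 14 above and 12 below 0, with a median of 0.05 and 0 past the adjusted threshold. Neu1 encodes the sialidase that is held in a complex with cathepsin A. It was at 7.67 and 7.44 in controls versus 8.07 and 8.66 in knockouts (0.81 ± 0.27; limma, adjusted p = 0.276; 0.52 without knockout replicate 3 and −0.13 under median scaling), while Ctsa itself differed by 0.05. Gusb, the beta-glucuronidase, differed by 0.75 ± 0.24 (−0.08 under median scaling). Gba2, a glucosylceramidase outside the lysosome that was on the list, differed by −0.75 ± 0.29 (−0.42 without control replicate 1). Of 24 lysosomal membrane proteins 21 were tested, 9 above and 12 below 0, with a median of −0.05 and 0 past the threshold. Scarb2, the receptor that carries glucocerebrosidase to lysosomes, differed by 0.52 ± 0.20 (−0.45 under median scaling), and Mfsd8, a membrane protein of lysosomes, by −0.90 ± 0.33 (−0.48 without knockout replicate 3). The median of all genes was −0.70 under median scaling.

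The vacuolar ATPase pumps the protons that cathepsins need. Of its 22 listed subunits and partners 16 were tested, 10 above and 6 below 0, with a median of 0.07 and 0 past the adjusted threshold. At an unadjusted p under 0.05, 4 were higher, namely Atp6v1c1 (0.82 ± 0.32), Atp6v1e1 (0.64 ± 0.25), Atp6v0a2 (0.57 ± 0.20) and Atp6v1g1 (0.55 ± 0.21), and 0 were lower, where 6.56% of all genes were higher and 8.77% lower. Without control replicate 2, Atp6v1c1 was at 0.39 and Atp6v1e1 at 0.42. Under median scaling the differences of Atp6v1c1, Atp6v0a2 and Atp6v1g1 were −0.17, −0.39 and −0.38, with the median of all genes at −0.70. Of 18 genes of sorting to the lysosome and TFEB family factors 16 were tested, 7 above and 9 below 0, with a median of −0.04, none past the adjusted threshold and none with an unadjusted p under 0.05.

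MHC class II processing, in which cathepsin S takes part, had the median farthest from that of all genes among the 7 lists of lysosomal and antigen-processing genes, cell type markers aside. All 11 listed genes were tested, 3 above and 8 below 0, with a median of −0.46 and 0 past the adjusted threshold. At an unadjusted p under 0.05, 5 were lower and 0 higher, where 8.77% and 6.56% of all genes were. Markers of B cells and dendritic cells, which carry class II molecules, lay on the same side, but none had an unadjusted p under 0.05. Those of monocytes and macrophages did not lie there, with 5 of 9 tested above 0 and a median of 0.04. All 6 tested B cell markers were below 0, with a summed level of 708 to 1387 in controls and 327 to 845 in knockouts and Ms4a1 not detected on any array. The 2 tested dendritic cell markers were below 0, with a sum of 211 to 289 and 144 to 229 and Itgax, Ccr9 and Cd209a not detected on any array. The B cell marker Ebf1 and the dendritic cell marker Clec9a entered the test through their control arrays alone, which favoured that direction. The part of B cells, dendritic cells, monocytes or macrophages in the class II values was not tested. H2-Ob, a subunit of the peptide-loading regulator H2-O, was at 7.66 and 7.12 in controls versus 6.46 and 6.0 in knockouts (−1.16 ± 0.28; limma, adjusted p = 0.237). The class II chains H2-Eb1 (−0.80 ± 0.23), H2-Aa (−0.78 ± 0.20) and H2-Ab1 (−0.71 ± 0.24) also lay below both controls on both knockout arrays. Cd74, the invariant chain that cathepsin S cleaves, was picked out after its values were seen. It was at 8.02 and 8.98 in controls versus 8.31 and 7.77 in knockouts, overlapped between genotypes, and differed by −0.46 ± 0.38 (limma, adjusted p = 0.579; 0.02 without control replicate 2).

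**Figure D4:**
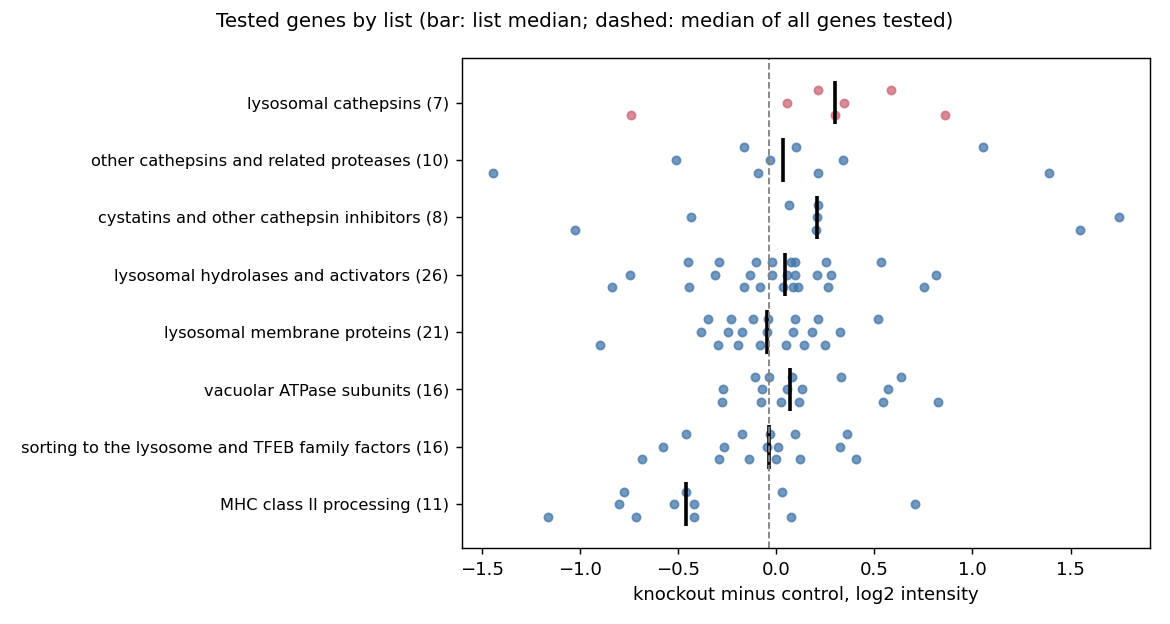
Knockout minus control on the log2 scale for the tested genes of each list, with the number tested in brackets. Points are genes, spread vertically for legibility, black bars are list medians and the dashed line is the median of all genes tested at −0.04. The cathepsin median of 0.30 lay to the right of the line and the MHC class II median of −0.46 to the left, and the remaining lists centred between −0.05 and 0.21.

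Markers of other cell types differed between the same arrays, and their part in the cathepsin values was not tested. Summed levels are sums of normalized linear intensity over the measured genes of a list. For granulocyte-monocyte progenitors, 8 of 9 tested markers were above 0 and the sum was 8866 to 9748 in the controls and 15827 to 22299 in the knockouts, with every measured marker detected on some array. That list holds Ctsg. Ctsc, Ctss and Ctsz were also higher on both knockout arrays than on both control arrays, as were 22% of all genes. Within a genotype, the sum was higher on control replicate 1 and on knockout replicate 3. Ctsc was higher on control replicate 2 and knockout replicate 1, and Ctsz on control replicate 2 and knockout replicate 3. Markers of the list did not share an order: Ctsg had that of the sum, Prtn3 that of Ctsz and Hp that of Ctsc. What these orders over 2 arrays per genotype mean was not tested. For monocytes and macrophages, 5 of 9 were above 0 and the sum was 4385 to 5838 in the controls, then 8746 on knockout replicate 1 but 2863 on knockout replicate 3. Ccr2, a monocyte chemokine receptor, was at 4.5 and 4.46 in controls versus 5.93 and 5.87 in knockouts (1.42 ± 0.19; limma, adjusted p = 0.157; 0.90 under median scaling). It was detected on 3 arrays, and its difference was 0.74 with an offset of 50 and 0.49 without background correction. For mature neutrophils, 9 of 10 were above 0 and the sum was 1446 to 4520 in the controls, then 17046 on knockout replicate 1 but 939 on knockout replicate 3, and with Mmp8 not detected on any array. Knockout replicate 1, the high array of these mature myeloid lists, was also the highest array for Ctsa, Ctsb, Ctsc, Ctsd, Ctsh and, narrowly, Ctss.

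Other marker lists moved differently. Megakaryocyte markers were below 0 in 9 of 9, with a sum of 2368 to 2691 in the controls and 668 to 746 in the knockouts and Gp6 not detected on any array. Of these, Ppbp and Tubb1 entered the test through their control arrays alone, which favoured that direction. Erythroid markers, the list nearest to Ctse by its known cell types, were above 0 in 5 of 8, with a sum of 3965 to 4608 in the controls, 3039 on knockout replicate 1 and 8222 on knockout replicate 3. Markers of the LSK gate and stem cells were below 0 in 6 of 7, with a sum of 4996 to 7487 against 3279 to 3650 and Procr not detected. Median differences were −0.45 for B cells, 0.13 for T and NK cells (5 of 6 above 0), −0.49 for dendritic cells and −0.53 for basophils and mast cells. None of the markers passed the adjusted threshold.

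The genes whose pattern over the 4 arrays was most like those of Ctsz and Ctse were ranked by the root mean square difference of log2 values, each gene taken relative to its control mean, among 7221 genes. Nearest to Ctsz were Amer1 (0.09), A830025K10RIK (0.09), B230363H02RIK (0.11), Prtn3 (0.13) and 9330177P18RIK (0.13). Prtn3, which encodes the granule protease proteinase 3, was at 11.27 and 11.83 in controls versus 12.11 and 12.69 in knockouts. Nearest to Ctse were Arhgef18 (0.12), the endothelial and stem cell sialomucin gene Emcn (0.13), Tceal5 (0.15) and Cdkn1c (0.16), which encodes the cell cycle inhibitor p57, followed by a row whose name could not be read as a gene (0.17). Emcn was at 8.03 and 8.12 in controls versus 7.08 and 7.85 in knockouts. With 4 arrays such a ranking describes these samples and nothing more.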

How the data were processed

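Total RNA of sorted cells was amplified to biotinylated cRNA and hybridised to Illumina bead arrays, per the labels' protocols. The deposited intensity values were a single number per gene name without background subtraction or normalization, per the file headers. The deposited table also gave, per the file headers, the standard error of the signal over beads and a detection p-value per array. How that p-value was computed is not given in the sources used here. A deposited value table of probe identifiers was not used, since no table here pairs them with genes.

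Names were updated through a RefSeq table of GRCm38.p6. Signals were corrected by normexp with 936 negative control probes and an offset of 16, quantile-normalized and taken to log2 (neqc, limma 3.58.1, R 4.3.3). Genes with a detection p under 0.05 on at least 2 arrays were kept, with the brightest row per gene and the row named by its symbol for members. Genotypes were compared with lmFit and eBayes (two-sided, no covariate, Benjamini-Hochberg). The fit was also run on simulated signals in which only genes well above background changed. That run does not cover members near background. With 2 pools per genotype, standard errors, confidence intervals and p-values also draw on a variance shared over genes (3.72 prior degrees of freedom). The number of arrays limits precision.

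Members and lists were chosen with earlier results of these data known. The genes named are all members and, per list, up to 4 genes with the largest difference among those without overlap between genotypes whose unadjusted p was under 0.05, and the 5 nearest to Ctsz and to Ctse. Some genes that this rule names are not reported here.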

Additional observations from a re-analysis of the deposited data

How the results depend on the processing

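No paired analysis was possible because the genotypes share only replicate number 1. Of 119 values of the 9 members under 14 alternative settings, 109 kept their direction and their side of the adjusted threshold or stayed within 1 SD of the arrays, and 8 reversed. Settings that change only the filter, the variance or the choice of row leave the difference of a member with a single row as it was. The 109 therefore include values that could not change direction. Under median scaling the median difference over all genes was −0.70, and there Ctsa was at −0.24, Ctsc at −0.30, Ctsh at −0.65, Ctss at −0.28 and Ctsz at −0.02, Ctsb moved to −1.02, and Ctse was at −1.70 and passed the threshold (adjusted p = 0.037). With 1 array left out Ctsa ranged from −0.44 to 0.55, Ctsd from −0.24 to 0.93 and Ctsh from −0.15 to 0.75, each negative without knockout replicate 1. The median of the members was −0.28 under median scaling and −0.15 (without knockout replicate 1) to 0.56 with 1 array left out.

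Under median scaling Gusb was at −0.08, Neu1 at −0.13, Scarb2 at −0.45, Atp6v0a2 at −0.39, Atp6v1c1 at −0.17 and Atp6v1g1 at −0.38. With 1 array left out Cd74 ranged from −0.94 to 0.02 and Mybl2 from −0.52 to 0.15. The size of differences in dim genes depended on the background step. Without background correction Lgmn was at 0.48, Ctla2b at −0.42, Gba2 at −0.25 and Mfsd8 at −0.31. An offset of 50 gave 0.68, −0.61, −0.38 and −0.44 for the same genes.

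Genes past the adjusted threshold, 0 over all 4 arrays and 0 with any 1 array left out, numbered 942 under median scaling, 3 under cyclic loess, 17 when detection on all 4 arrays was required and 15 with a trended, robust variance. At an unadjusted p under 0.05, higher genes numbered 20 under median scaling, 1418 without a detection filter, and 397 (without control replicate 2) to 747 with 1 array left out (431 without knockout replicate 3). Lower genes numbered 4368 under median scaling, 582 with detection on all 4 arrays, 1865 without a filter, and 535 (without control replicate 2) to 981 with 1 array left out (609 without knockout replicate 3). Higher members numbered 0 under cyclic loess, median scaling and the negative-control filter, 2 with detection on all 4 arrays and with the trended, robust variance, and 0 (without control replicate 1) to 2 (without control replicate 2 or knockout replicate 3) with 1 array left out. Lower members numbered 1 under median scaling, and 0 to 1 (without knockout replicate 3) with 1 array left out.

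List medians under median scaling were −0.74 for other proteases, −0.66 for inhibitors, −0.81 for hydrolases, −0.85 for membrane proteins, −0.76 for the vacuolar ATPase, −0.84 for sorting and −1.35 for MHC class II. With 1 array left out, other proteases ranged from −0.10 to 0.17, inhibitors from 0.05 to 0.37, membrane proteins from −0.07 to 0.04, the vacuolar ATPase from 0.07 to 0.13, sorting from −0.13 to 0.05 and MHC class II from −0.76 to −0.37. Averaging the rows of a gene gave 0.16 for other proteases, and detection on all 4 arrays gave 0.09 for hydrolases and 0.02 for membrane proteins. The negative-control filter and the brightest row of every gene were chosen after seeing the data, because of Ctsb and Ctse. Ctsa, Ctsd, Ctsl and Ctss lay near background on some or all arrays, which limits any difference in them.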
